A study of Mus musculus with 2 samples.

Results

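The cytokine receptor chains other than the erythropoietin receptor were followed in G1E-ER4 cells through 9 genes, Kit, Csf2rb, Csf2rb2, Csf2ra, Il3ra, Il4ra, Il2rg, Il6st and Ifnar1. They were chosen by name as receptors of growth factors, interleukins and interferon, with earlier results of these data known. All 9 were found among the 43346 Ensembl gene rows of the deposited tables. The G1E-ER4 line is immortalised and comes from mouse erythroid cells. Its parent, G1E, lacks the transcription factor GATA1, and G1E-ER4 carries a GATA1 fused to the hormone-binding part of the estrogen receptor, which estradiol switches on. PolyA RNA was sequenced as paired ends from cells differentiated for 14 h in 10 nM 17beta-estradiol, in 2 libraries numbered as biological replicates 1 and 2 of 1 group. Because the labels tie the pair to a single biosample, their spread could in part be technical, and the p-values given measure only counting error between them. No untreated or earlier cells were analysed here, so the values are levels at this time point and not responses to estradiol.

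Cytokine receptors are single-pass membrane proteins that are brought together by their ligand. KIT, the receptor of stem cell factor, is itself a tyrosine kinase and supports early erythroid progenitors. The other chains have no kinase of their own and work through JAK kinases, which phosphorylate STAT factors. Most of them act as pairs, in which a private chain recognises the ligand and a shared chain carries the signal: the common beta chain for IL-3, IL-5 and GM-CSF, the common gamma chain for IL-2, IL-4, IL-7, IL-9, IL-15 and IL-21, and gp130 for the IL-6 family. A private chain without its shared partner, or the reverse, therefore makes an incomplete receptor.

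The 9 genes spanned more than 3 orders of magnitude, from Csf2rb, the common beta chain, at 949 ± 369 TPM (SD, n = 2) to Il6st, the gp130 chain, at 0.33 ± 0.085 TPM. TPM are counts divided by effective transcript length and scaled to a total of 1000000 in each library, so levels of different genes can be set side by side. In descending order of mean TPM stood Csf2rb, Csf2rb2, Il3ra, Kit, Ifnar1, Il2rg, Il4ra, Csf2ra and Il6st. Neighbours in this order did not overlap between the libraries, except Ifnar1 with Il2rg and Il4ra with Csf2ra. At 1 TPM or more in both libraries were 7 of the 9 genes, against 37.6% of 21461 nuclear protein-coding genes, and at 50 TPM or more were 2 of the 9, against 9.05%. The median of their mean TPM was 6.67, against 0.03 over all nuclear protein-coding genes. In RNA from bulk cells, a lower level from fewer expressing cells and one from less RNA per cell cannot be told apart.

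**Figure D1:**
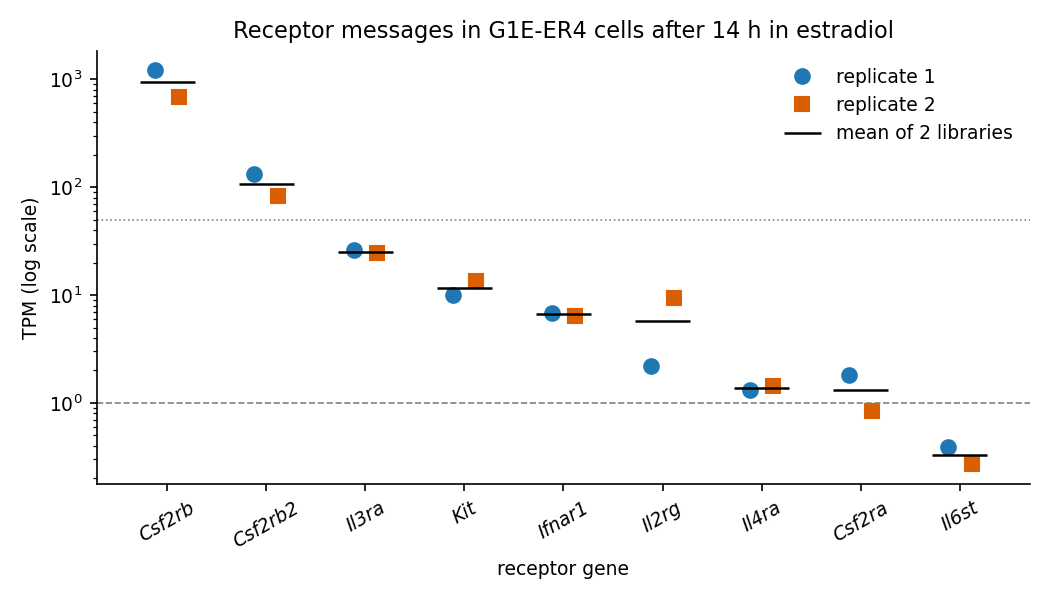
TPM (log axis) of the 9 receptor genes in replicate 1 (circles) and replicate 2 (squares), with bars at the mean; the dashed line is at 1 TPM and the dotted line at 50 TPM. Csf2rb and Csf2rb2 lie above 50 TPM in both libraries, Csf2ra crosses 1 TPM between them, and Il6st lies below 1 TPM in both.

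The cells were checked against markers before the receptors were read. Of 12 erythroid markers, 11 reached 1 TPM in both libraries (among them Hba-a1, Hba-a2, Hbb-bs, Hbb-bt, Gata1, Klf1, Tal1, Epor, Alas2 and Slc4a1), while Epb42, a membrane skeleton protein of red cells, had 0.67 and 0.8 TPM. Because the line carries an introduced GATA1 fusion, its Gata1 reads may come from that construct and do not check the cell type. Summed over all 12, the erythroid markers had 33281 TPM in replicate 1 and 84550 in replicate 2. Most of that gap lay on transcripts annotated as retained introns of Hbb-bs and Hba-a1, and on coding transcripts the sums were 13837 and 14232 TPM. Mast cell, granulocyte, macrophage and lymphoid cells are known for several of these receptors, and few of their markers reached 1 TPM. Of 8 mast cell and basophil markers 1 reached 1 TPM in both libraries, Hdc, which makes histamine, at 2.52 and 1.67 TPM, and the whole list summed to 2.82 and 1.68 TPM, with Cpa3, Tpsb2 and Mcpt4 at 0 counts. Of 12 granulocyte and macrophage markers 1 did so, Cd68 at 1.08 and 1.2 TPM, with a list sum of 1.15 and 1.27 TPM and Elane, Ctsg and Ly6g at 0 counts. None of 10 lymphoid markers did, and they summed to 0.32 and 1.56 TPM, with Cd3g, Cd4 and Cd8a at 0 counts. Markers of megakaryocytes, close relatives of the erythroid lineage, were higher. Of 8, 4 reached 1 TPM in both libraries, led by the von Willebrand factor receptor chain Gp1ba at 47.7 and 56.8 TPM, with a list sum of 77.2 and 80.7 TPM and Ppbp at 0 counts.

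The libraries held 38395479 and 60097379 expected counts, so replicate 2 was 1.57 times as deep. A count of 0 allows up to 3 counts, which is 0.0781 CPM (counts scaled to a total of 1000000) in replicate 1 and 0.0499 CPM in replicate 2, a limit of counting error only. To compare the libraries, each gene was given an exact two-sided binomial test on rounded expected counts, with Benjamini-Hochberg adjustment over 11230 genes, and was called at an adjusted p under 0.05 and a fold of 1.5 or more. This test compares 2 libraries, not conditions. Of the 9 genes 3 were called, 1 higher in replicate 2 and 2 higher in replicate 1. Over all genes tested 41.4% were called, 24.3% higher in replicate 2 and 17.1% higher in replicate 1, so the receptors' count is no more than the background. The median log2 count ratio of replicate 2 over replicate 1 was -0.10 for the 9 genes and 0.05 for all nuclear protein-coding genes tested.

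Kit, on chromosome 5 (GRCm38, 75574916 to 75656722, plus strand), had 10.0 TPM in replicate 1 and 13.5 TPM in replicate 2, from 1531 and 3666 counts. It stood in the upper 23.5% of nuclear protein-coding genes by mean TPM. Its counts were 1.45-fold higher in replicate 2 (95% interval 1.37 to 1.54, exact binomial test, adjusted p = 2.07e-35), which is short of the fold of 1.5 for a call. With library sizes taken as total counts the fold was 1.53, which is called.

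Kit transcripts come in a long and a short form that differ at the end of exon 9, near the part of the receptor just outside the membrane. The longer coding form, Kit-201, is the one known as GNNK+ and carries 12 more coding bases than Kit-204. The junctions of exon 9 with exon 10 are printed because they are where the counted forms differ. They are taken from GENCODE M21 transcripts on GRCm38 and run from 75639117 to 75640522 on chromosome 5, with the intron left out, and capitals mark the extra bases, which lie at 75639147 to 75639158.
Kit-201: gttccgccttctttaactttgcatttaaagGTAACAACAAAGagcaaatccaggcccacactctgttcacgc
Kit-204: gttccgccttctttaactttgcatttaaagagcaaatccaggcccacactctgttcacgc

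The form with the 12 bases held most of the Kit reads in both libraries. Kit-201 took 82.0% of the gene's TPM in replicate 1 and 98.7% in replicate 2, from 1269 and 3661 expected counts. Kit-204 took 16.7% in replicate 1, from 260.1 expected counts, and was listed at 0 in replicate 2. The libraries thus differed in whether the quantifier assigned any reads to the short form. Kit-204 also starts 39 bases further upstream than Kit-201 (75574916 to 75574954), so the deposited split does not rest on the junction alone. These shares are estimates of the authors' quantifier and were not tested.

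Csf2rb and Csf2rb2 are neighbouring copies on chromosome 15, on opposite strands. Csf2rb (78325752 to 78353847, plus strand) encodes the common beta chain, and Csf2rb2 (78282507 to 78305721, minus strand) encodes the second mouse beta chain, which serves IL-3 alone. Their coding sequences were identical at 95.3% of 2629 aligned bases (2506 identical, 123 different), and their whole transcripts at 93.7%. The longest identical coding run had 242 bases, in exon 14 (78348577 to 78348818 in Csf2rb). The 90 coding bases in which the copies differ most are printed, because reads over such a stretch can tell the copies apart. Taken from the same annotation, they lie in exon 4, at chr15:78338897-78338986 (plus strand) in Csf2rb and chr15:78294345-78294434 (minus strand) in Csf2rb2, and capitals mark the 16 bases that differ.
Csf2rb: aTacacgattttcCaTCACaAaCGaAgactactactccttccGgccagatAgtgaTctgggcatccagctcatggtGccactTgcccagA
Csf2rb2: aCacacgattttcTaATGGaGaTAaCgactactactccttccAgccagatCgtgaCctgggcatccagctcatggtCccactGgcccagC

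**Figure D2:**
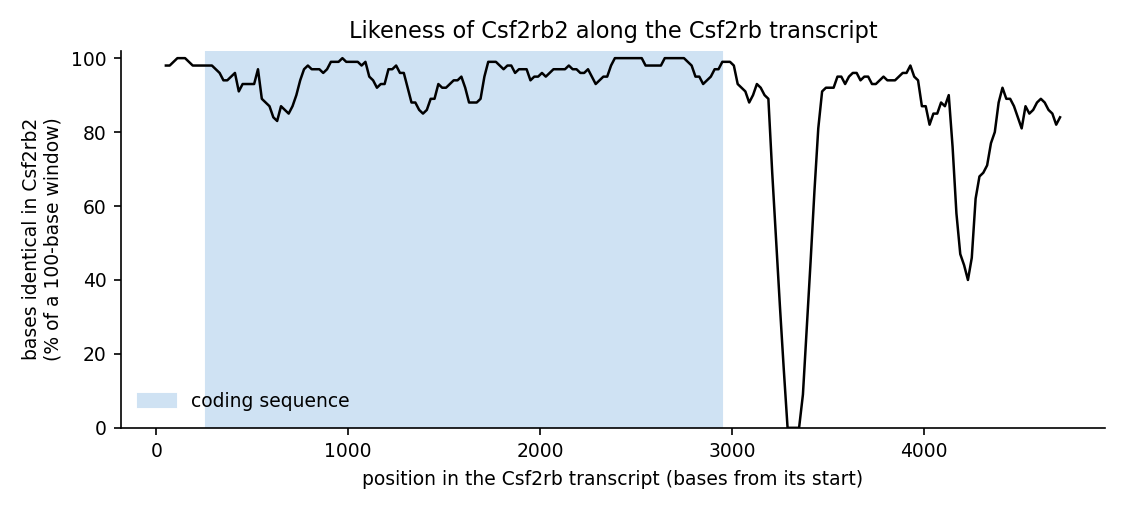
Percent of bases identical between the Csf2rb transcript and its Csf2rb2 alignment in windows of 100 bases, against the window's centre in bases from the start of the Csf2rb transcript; the coding sequence is shaded. Windows at 100% occur inside the coding sequence, and the fall to 0% behind it is a stretch of Csf2rb with no aligned base in Csf2rb2.

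The common beta chain was the highest of the 9 genes by far. Csf2rb had 1211 TPM in replicate 1 and 688 TPM in replicate 2, from 170146 and 172481 counts, and ranked 139 of 21461 nuclear protein-coding genes. Csf2rb2 had 132 and 82.4 TPM, from 17922 and 19980 expected counts, and ranked 1268. Both copies were higher in replicate 1. Csf2rb was called, at a 1.63-fold count difference (95% interval 1.62 to 1.64), with an adjusted p of the exact binomial test too small to store and written as 0. Csf2rb2 differed 1.48-fold (interval 1.45 to 1.51, exact binomial test, adjusted p = 7.15e-312) and missed the fold for a call, while its TPM differed 1.60-fold.

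Csf2rb exceeded Csf2rb2 by 3.13 ± 0.10 (SD, n = 2) on the log2 scale of TPM + 0.1, the scale of all chain ratios here, or 9.18 and 8.35 times in TPM. A ratio counted as larger than the spread when both libraries gave the same sign and the mean was over 2 times the range between them, which held here. Csf2rb2 made up 9.82% and 10.7% of the sum of both copies, which came to 1342 and 770.5 TPM. The deposited posterior SD of the counts was the same for both copies, 125 counts in replicate 1 and 79.0 counts in replicate 2, and it was 0 for the other genes except Il2rg (0.38 and 0.15 counts). Of all 100-base windows of the Csf2rb transcript 7.16% also occurred in Csf2rb2, 11.0% of those of 75 bases and 18.9% of those of 50 bases. The sources used here do not give the read length, and the split between the copies is uncertain to the extent of shared reads.

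The private chains that pair with these beta chains stood far lower. Il3ra, the IL-3 receptor alpha chain (chromosome 14, 14346275 to 14356011, plus strand), had 26.0 and 24.7 TPM from 987 and 1661 counts. Its counts differed 1.02-fold between the libraries (interval 0.942 to 1.10, exact binomial test, adjusted p = 0.677). Among the 9 genes it had the highest GC content, 65.9%, against a median of 52.8% for expressed protein-coding genes. Csf2ra, the GM-CSF receptor alpha chain (chromosome 19, 61223957 to 61228429, minus strand), had 1.81 and 0.85 TPM from 94 and 78 counts. It was 1.99-fold higher in replicate 1 (interval 1.46 to 2.72, exact binomial test, adjusted p = 1.59e-05) and so lay on both sides of 1 TPM.

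The IL-3 alpha chain was the higher of both alpha chains in each library. Csf2ra over Il3ra was -4.24 ± 0.66 (SD, n = 2) on the log2 scale, so that Il3ra had 14.4 times the TPM of Csf2ra in replicate 1 and 29.0 times in replicate 2. Csf2rb exceeded Il3ra by 5.17 ± 0.52, or 46.6 and 27.9 times, and Csf2ra by 9.40 ± 0.14, or 669 and 809 times. All of these ratios were larger than the spread between the libraries. The beta chain message was thus in large excess over each alpha chain message in both libraries.

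Epor, the erythropoietin receptor (chromosome 9, 21958897 to 21963506), had 116 and 140.04 TPM, below Csf2rb and above Kit in both libraries, and its range overlapped that of Csf2rb2. Csf2rb exceeded Epor by 2.84 ± 0.77 (SD, n = 2) on the log2 scale, 10.4 times in TPM in replicate 1 and 4.91 times in replicate 2. Kit over Epor was -3.44 ± 0.11 on the same scale, and both ratios were larger than the spread.

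**Figure D3:**
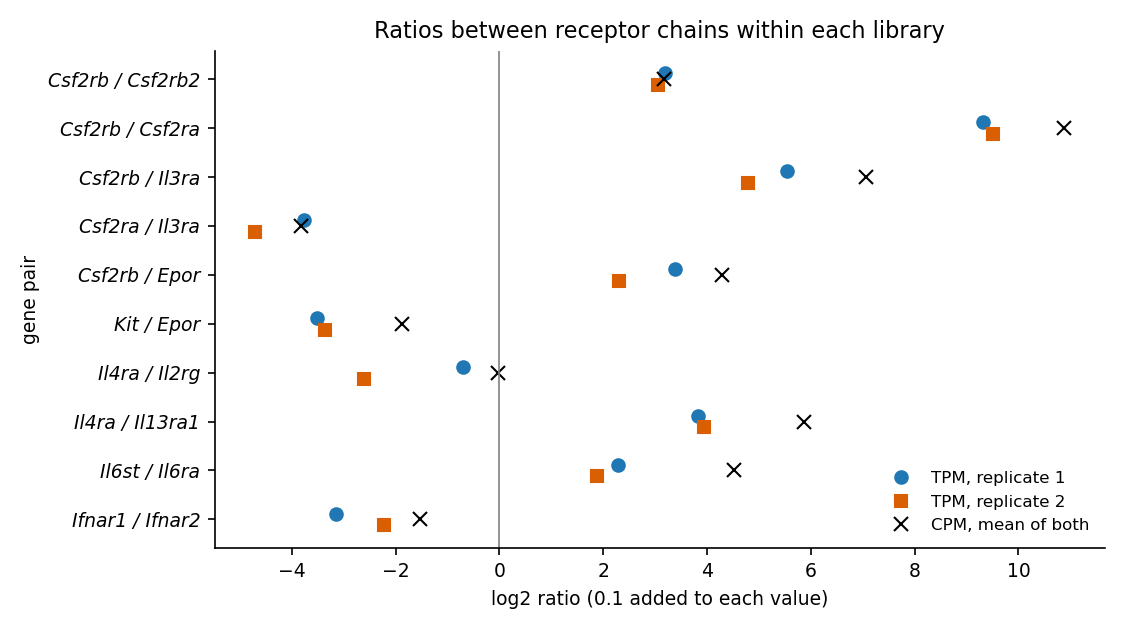
Log2 ratios between receptor chains within each library, first-named gene over second, on TPM + 0.1 (circles and squares) and on counts not divided by length (CPM, crosses, mean of both libraries). Csf2rb exceeds each partner and Ifnar1 lies below Ifnar2 in both libraries. The CPM mean of Il4ra over Il2rg lies close to 0, but the libraries differ in direction, with count ratios of 1.93 in replicate 1 and 0.505 in replicate 2.

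The common gamma chain was the least even of the 9 genes between the libraries. Il2rg (chromosome X, 101264378 to 101268255, minus strand) had 2.22 TPM from 103 counts in replicate 1 and 9.33 TPM from 766 counts in replicate 2. The counts were 4.49-fold higher in replicate 2 (interval 3.67 to 5.59, exact binomial test, adjusted p = 6.78e-65). Markers of lymphoid cells, in which the chain is best known, summed to 0.32 TPM in replicate 1 and 1.56 TPM in replicate 2, and on coding transcripts alone to 0.3 and 0.2 TPM. Of the 2 lymphoid markers that could be tested, Lck, a T cell kinase, was called higher in replicate 2 at 0.15 and 1.4 TPM, with 92.9% of its TPM in replicate 2 on a retained-intron transcript. The other, Cd79a, a B cell receptor chain, had 2 and 11 counts and was not called. The T cell markers Cd3e and Cd3g had 1 and 0 counts in replicate 1 and 0 each in replicate 2. Of 12 erythroid markers, 7 were called higher in replicate 2 and 2 higher in replicate 1, Klf1 by 1.75-fold and Tal1 by 1.59-fold, against 24.3% and 17.1% of all genes tested. The part of these differences in the Il2rg result was not tested. Il2rg-201, the full coding transcript, took 100% and 98.7% of the gene's TPM. Gm20489, an annotated coding gene that overlaps it on the same strand, had 0 counts.

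Il4ra, the private chain for IL-4 and, with Il13ra1, for IL-13, was low and even. It lies on chromosome 7 (125552120 to 125579474, plus strand) and had 1.32 and 1.44 TPM from 199 and 387 counts, a 1.18-fold difference (interval 0.991 to 1.41, exact binomial test, adjusted p = 0.0805). Il4ra over Il2rg was -1.66 ± 1.35 (SD, n = 2) on the log2 scale, with Il2rg 1.68 times Il4ra in replicate 1 and 6.48 times in replicate 2, so this ratio was not larger than its spread. Its other partner, Il13ra1, had 0 counts in both libraries. Against a floor of 3 counts per library, the Il4ra counts were at least 66.3-fold higher in replicate 1 and at least 129-fold higher in replicate 2.

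The gp130 chain was the lowest of the 9 genes by deposited TPM. Il6st (chromosome 13, 112464070 to 112510086, plus strand) had 0.39 and 0.27 TPM from 89 and 124 counts, a difference of 0.843-fold for replicate 2 over replicate 1 (interval 0.638 to 1.12, exact binomial test, adjusted p = 0.275). Its deposited TPM interval, 0.489 to 2.56 in replicate 1 and 0.352 to 1.68 in replicate 2, lay above the deposited TPM itself and crossed 1. Its place below 1 TPM and its rank therefore depend on which of these values is read. Il6st was not alone in this mismatch. The TPM of Csf2rb lay above its interval in replicate 1 (1175 to 1187) and replicate 2 (674 to 681), and that of Csf2rb2 in replicate 1 (126.0 to 131.2). On CPM, which is not divided by length, Il6st was below Csf2ra in replicate 1 (2.32 against 2.45) and above it in replicate 2 (2.06 against 1.30). Their most abundant transcripts have 8678 bases for Il6st and 1849 bases for Csf2ra, so the CPM order is not one of levels per length. Il6ra, the private chain for IL-6, had 0 counts in both libraries. The Il6st counts were at least 29.7-fold and at least 41.3-fold higher than the floor for Il6ra.

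Ifnar1, a chain of the type I interferon receptor (chromosome 16, 91485238 to 91507441, plus strand), had 6.89 and 6.45 TPM from 701 and 1078 counts. The libraries did not differ past the test (0.932-fold, interval 0.847 to 1.03, exact binomial test, adjusted p = 0.186). Its partner Ifnar2, the chain that binds interferon most tightly, had 62.0 TPM in replicate 1 and 30.4 TPM in replicate 2. Ifnar1 over Ifnar2 was -2.68 ± 0.66 (SD, n = 2) on the log2 scale, larger than the spread, with Ifnar2 9.001 and 4.71 times Ifnar1 in TPM. In counts, not divided by length, the gap was smaller, with Ifnar1 at 0.259 and 0.454 times Ifnar2.

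Ifnar1 was the gene whose reads were divided most evenly over transcripts. Ifnar1-203 took 52.2% and 53.97% of its TPM, the transcript of 3909 bases took 36.6% and 15.9%, and that of 2771 bases took 8.76% and 21.03%. The transcript of 2771 bases has the same coding exons as that of 3909 bases and differs by an intron of 1112 bases in the last exon. GENCODE M21 gives Ifnar1-203 as a transcript for nonsense-mediated decay, with a 61-base exon at 91498573 to 91498633. The deposited Ifnar1-203 is 3372 bases long against 3433 in M21, and the 61 bases of difference are the length of that exon, so the M21 type may not describe the counted model. On transcripts typed as coding in M21 alone, Ifnar1 had 3.12 and 2.38 TPM.

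**Figure D4:**
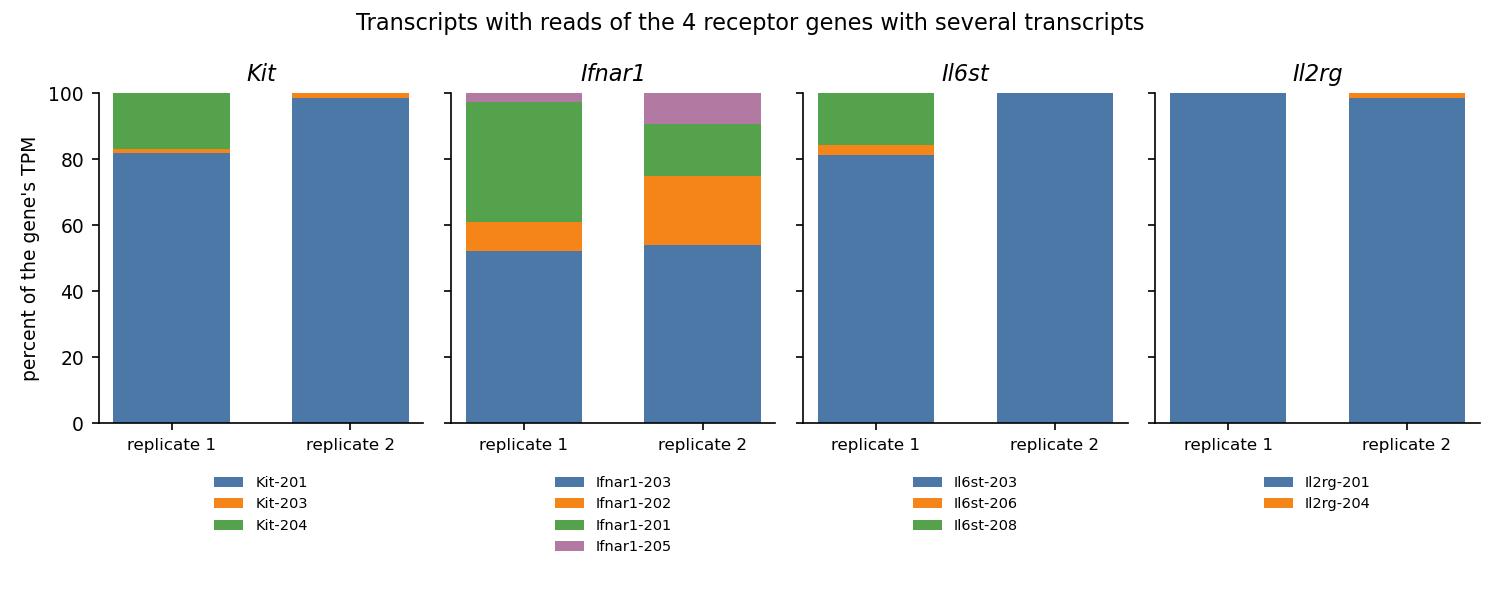
Percent of each gene's TPM on its transcripts (stacked bars, 100% in all) in replicate 1 and replicate 2, for the 4 receptor genes with several deposited transcripts. Kit-204 holds 16.7% in replicate 1 and 0% in replicate 2, and Ifnar1-203 holds 52.2% and 53.97%; of the other Ifnar1 transcripts, green is that of 3909 bases and orange that of 2771 bases.

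The other genes were simpler. Of the 9 genes 5 had a single deposited transcript (Csf2rb, Csf2rb2, Csf2ra, Il3ra and Il4ra), and the 4 others make up the rest of 30 transcripts. In Il6st, transcript Il6st-203 of 8678 bases took 81.3% and 100%, with 15.5% on Il6st-208 in replicate 1, from 5.24 expected counts. Ifnar1 alone had more than 1 transcript at 10% or more in both libraries.

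Chains were then read together, as 19 receptor complexes known from these families, each with at least 1 of the 9 genes. In 6 of the 19 every chain reached 1 TPM in both libraries. These were the receptor of stem cell factor, both forms of the IL-3 receptor, the type I IL-4 receptor, the IL-9 receptor and the type I interferon receptor. The limiting chain, the one with the lowest mean TPM, was Il3ra at 25.3 ± 0.948 TPM (SD, n = 2) in the IL-3 receptors, Il4ra at 1.38 ± 0.085 TPM in the IL-4 receptor and Ifnar1 at 6.67 ± 0.311 TPM in the interferon receptor. In the IL-9 receptor it was Il2rg, at 2.22 and 9.33 TPM, beside the private chain Il9r at 40.1 and 48.0 TPM. Il9r was thus the highest private interleukin chain in these complexes, above Il3ra.

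In 13 of the 19 complexes a chain was missing or below the threshold. The limiting chain had 0 counts in both libraries in 7 of them, namely Il5ra for IL-5, Il13ra1 for the type II receptor of IL-4 and IL-13, Il2rb for IL-2, Il15ra for IL-15, Il7r for IL-7, Il6ra for IL-6 and Il27ra for IL-27. Il2ra, the third chain for IL-2, had 1 and 0 counts, and Il21r 0 and 1. Lifr, shared by the receptors of LIF and CNTF, had 1 and 0 counts, and Osmr, for oncostatin M, 0 and 1. In the GM-CSF receptor Csf2ra was limiting and passed 1 TPM in replicate 1 alone. For IL-11, Il6st was limiting, while Il11ra1 was listed at 5.83 and 2.46 TPM, of which 0.9 and 1.97 TPM lay on coding transcripts. Cntfr was listed at 5.12 and 2.28 TPM, of which 0 and 0.22 TPM lay on coding transcripts. Counted on coding transcripts alone, the same number of complexes, 6 of 19, had every chain at 1 TPM in both libraries.

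**Figure D5:**
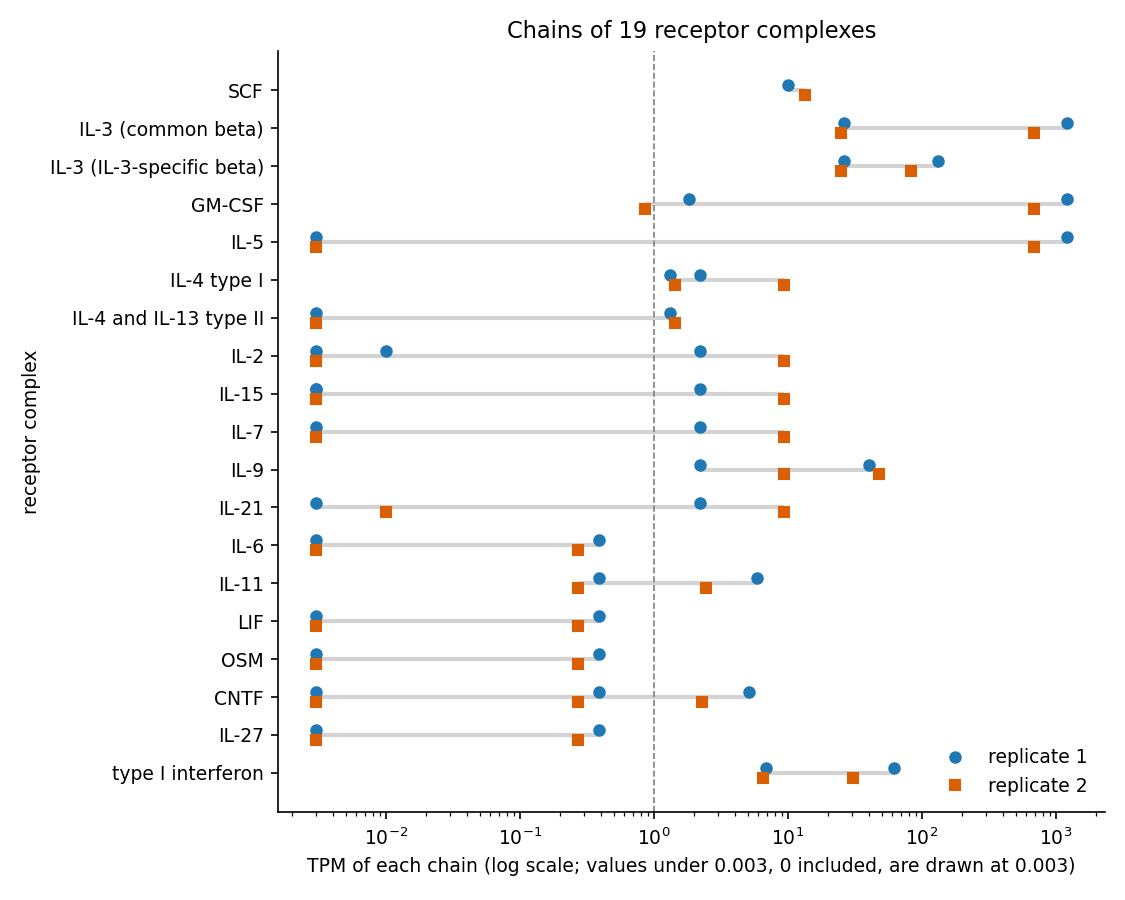
TPM (log axis) of each chain of 19 receptor complexes in replicate 1 (circles) and replicate 2 (squares), with a grey line over the range of a complex and a dashed line at 1 TPM; values under 0.003, 0 included, are drawn at 0.003. All points lie right of the dashed line for 6 complexes, and the 2 beta chains of the IL-3 receptors lie right of Il3ra.

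Of 36 other cytokine receptor genes, 9 reached 1 TPM in both libraries, 7 of them on coding transcripts alone, and 23 stayed under 0.1 TPM in both, 13 of these at 0 counts. The highest after Epor were Ifnar2, Il9r and Crlf2, the receptor chain of TSLP, at 39.5 and 20.8 TPM. Of the 15 that could be tested, 2 were called higher in replicate 2 and 4 higher in replicate 1, against 24.3% and 17.1% of all genes. Flt3, Csf3r and Csf1r, receptors of other blood lineages that were looked at in addition to the named genes, had at most 0.07 TPM.

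The kinases that these chains use were all present. The 4 JAK genes reached 1 TPM in both libraries, and none was called between them by the exact binomial test with its fold minimum. Among all genes tested 41.4% were called. Jak2, used by the beta common and erythropoietin receptors, had 9.53 and 6.80 TPM. Jak3, used by the common gamma chain, had 18.4 and 11.5 TPM, and Tyk2, used by IFNAR1, had 15.0 and 19.3 TPM. Jak1, used by gp130, IL4RA and IFNAR2, was listed at 436 and 247 TPM, of which 64.6% and 58.5% lay on a processed transcript of 374 bases. Its coding transcripts had 148 and 73.1 TPM.

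Of 8 STAT and Irf9 genes, 7 reached 1 TPM in both libraries, and Stat4 had 0 counts. Stat5b, a main carrier of IL-3 and erythropoietin signals, had 66.8 and 69.0 TPM. Stat3 had 49.8 and 27.1 TPM, of which 16.5 and 22.1 TPM were on coding transcripts. Stat6, which acts below IL4RA, had 8.73 and 33.0 TPM, with 8.35 and 14.5 TPM on coding transcripts. Irf9, part of the interferon-activated factor, had 11.7 and 32.8 TPM, with 3.15 and 6.31 TPM on coding transcripts. Of the 7 tested, 3 were called, all higher in replicate 2, against 24.3% of all genes tested in that direction and 41.4% in either.

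Of 16 adaptors and kinases used by KIT, 12 reached 1 TPM in both libraries, and of 14 tested, 2 were called in each direction. Among all genes tested, 24.3% were called higher in replicate 2 and 17.1% higher in replicate 1. Shc1 had 122 and 149.6 TPM, of which 114 and 87.3 TPM lay on coding transcripts, and Grb2 had 117 and 77.04 TPM. Both link receptors to RAS. Ptpn11, a phosphatase that promotes RAS signalling, had 26.2 and 39.9 TPM. Lyn, a SRC-family kinase, was listed at 36.0 and 41.1 TPM, but 0.88 and 2.37 TPM of this lay on coding transcripts. Plcg2 and Sh2b2 were not detected.

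Negative regulators were expressed nearly throughout. Of 19, 16 reached 1 TPM in both libraries, and of 18 tested, 2 were called higher in replicate 2 and 3 higher in replicate 1. Among all genes tested, 24.3% and 17.1% were called in these directions. The highest by mean TPM were the docking protein Dok1 at 165 and 194 TPM and Sh2b3, an inhibitor of JAK2, at 214 and 78.7 TPM. Next were Cish, which STAT5 induces, at 129 ± 29.9 TPM (SD, n = 2) and Socs2 at 54.9 and 39.8 TPM. For Sh2b3, 81.1% and 56.9% lay on a transcript of 642 bases. For Cish, 57.0% and 32.8% lay on one of 411 bases, and its coding transcripts had 112 and 74.3 TPM. Ptprc, the CD45 phosphatase of white cells, had 3 and 0 counts.

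Genes known as targets of STAT factors were high, and most interferon-stimulated genes were not. Of 12 STAT targets, 9 reached 1 TPM and 6 reached 50 TPM in both libraries. They were led by Ccnd3 at 1702 and 1479 TPM, Mcl1 at 835 and 309 TPM, Pim1 at 661 and 268 TPM and Myc at 406 and 371 TPM. For Mcl1, 91.0% and 91.7% lay on a transcript of 858 bases typed as coding. Of 10 tested, 3 were called, all higher in replicate 1, against 17.1% of all genes tested in that direction and 41.4% in either. Pim3 had 0 counts and Bcl6 1 and 0. Of 14 interferon-stimulated genes, 3 reached 1 TPM in both libraries, among them Irf7 at 23.4 and 15.3 TPM and Bst2 at 9.95 and 7.16 TPM. Ifit1 and Mx1 had 0 counts and Rsad2 1 and 0. Of 7 tested, 2 were called higher in replicate 2, against 24.3% of all genes tested.

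The cells made few messages for ligands of these receptors. Of 22 ligand genes, 1 reached 1 TPM in both libraries, Il4, at 3.29 and 1.28 TPM from 44 and 29 counts, with 2.36 and 0.81 TPM on coding transcripts. Osm had 1.17 and 0.87 TPM, Ctf1 2.08 and 0.76 TPM and Il11 0.27 and 0.18 TPM. Under 0.1 TPM in both libraries were 18, among them Il3, Csf2 and Il5 at 0 counts and Kitl, which encodes stem cell factor, at 1 count in each library. Of 4 tested, 3 were called, all higher in replicate 1, against 17.1% of all genes tested in that direction and 41.4% in either.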

How the data were processed

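PolyA RNA of 2 G1E-ER4 libraries was measured as paired ends on mm10, per the labels; GENCODE M4 is named in the deposited notes. The aligner is not given in the sources used here, nor are the quantifier's version, the read length and the use of strand in counting. Column names in the file headers are those of RSEM. The deposited expected counts are estimated fragments per gene or transcript. The deposited TPM values divide them by effective length and sum to 1000000; the deposited FPKM values divide by length and by fragments. The deposited percent of a gene's TPM gives isoform shares. The deposited posterior SD and TPM bounds are treated as a signal unit.

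Of 69691 rows, 43346 are Ensembl genes, of which 42462 got symbols and types by identifier from GENCODE M21 (GRCm38) and 884 did not. Left out were 26248 unnamed rows, with 2 counts in replicate 1 (5.2e-06%) and 0 in replicate 2, and 97 spike-in rows with 0. Sequences and coordinates are those of M21 transcripts; lengths differed from the deposited ones for Csf2rb2 (by 128 bases), Il3ra (220), Il4ra (164) and Ifnar1-203 (61). The planned identity of the beta chain proteins was replaced by that of their coding sequences.

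Expected counts were rounded for the exact binomial test, with library sizes scaled by TMM (edgeR 4.0.16, factors 0.974 and 1.03), genes with 10 or more counts in sum, and 0.5 counts added for folds. Intervals are exact (Clopper-Pearson, 95%) and, like the floors, cover counting error only; the test has no measure of spread between cultures. It was tried on simulated counts drawn with counting error alone, which cannot show how it behaves where libraries differ beyond that error. Alternatives were DESeq2 1.42.0 size factors, total counts, other thresholds, pseudocounts, scales and transcript sets, and each library alone. R 4.3.3, Python 3.11.15, scipy 1.17.1, pandas 2.3.3 and Biopython 1.88 were used.

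The genes, lists and tests were chosen with earlier results of these data known. Named are all 9 genes, both genes of each pair, each chain of a complex, all erythroid markers, and of each other list the 4 highest and up to 3 genes under 0.1 TPM with the lowest counts; a few of these are not reported here, and exceptions are stated or were chosen after their values were seen. The antisense genes Gm48860 at Il3ra and Gm44876 at Il4ra are annotated in M21 and were not analysed here.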

Additional observations from a re-analysis of the deposited data

How the results depend on the processing

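No paired analysis was possible because both libraries belong to 1 group. In all, 237 alternative values were computed; of those for whole comparisons 27 moved and the rest kept their result, and of those for single genes 95 kept theirs, 6 moved, 4 came to pass the call rule, 2 no longer passed it and 1 turned its direction. Of the 9 receptor genes 3 were called between the libraries, 1 with a fold of 2 and 5 with no fold minimum; over all genes 4649 were called, against 2444 and 8252. Pair ratios depended on length and pseudocount, and those on CPM are means of both libraries. For Il4ra over Il2rg the libraries differed in direction, with count ratios of 1.93 in replicate 1 and 0.505 in replicate 2. With CPM in place of TPM, log2 ratios were 10.88 for Csf2rb over Csf2ra, 7.06 for Csf2rb over Il3ra, 4.30 for Csf2rb over Epor, -1.88 for Kit over Epor, -0.025 for Il4ra over Il2rg, 5.88 for Il4ra over Il13ra1, 4.52 for Il6st over Il6ra and -1.54 for Ifnar1 over Ifnar2. With a pseudocount of 1 TPM they were 8.65 for Csf2rb over Csf2ra, -3.53 for Csf2ra over Il3ra, 1.25 for Il4ra over Il13ra1 and 0.41 for Il6st over Il6ra, and with 0.01 TPM 7.12 and 5.06 for the last pairs, in which 1 gene has 0 counts. On coding transcripts Ifnar1 over Ifnar2 was -3.94. Shared windows of Csf2rb were 18.9% at 50 bases and 11.0% at 75, against 7.16% at 100. Ligands at the TPM threshold numbered 3 at 0.5 TPM and 0 at 2 TPM, and mast cell and granulocyte or macrophage markers 0 at 2 TPM; counted on coding transcripts alone, an alternative chosen after seeing the data, ligands and granulocyte or macrophage markers numbered 0, against 1 each. The Il3ra difference between libraries turned from 1.02 on counts to 0.948 on TPM, both short of a call; beyond construction, the cause of these moves was not tested. With a single library read, 7 or 8 of the 9 genes reached 1 TPM, and 6 or 7 of the 19 complexes had every chain at 1 TPM. At this depth genes with few counts, such as Csf2ra and Il6st, are the least precise.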
